A study of Homo sapiens with 5 samples.

Results

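The 9 genes FN1, THBS1, TNC, SPARC, TGFBI, LOX, LOXL2, FBN1 and HSPG2, which encode proteins of the extracellular matrix or its enzymes, were compared between weakly and strongly adherent cells of 1 breast cancer line. They were taken by symbol from a table of raw read counts with 25382 genes, and all 9 symbols were found there. The cells were MDA-MB231, an established, mesenchymal human breast cancer line without hormone receptors, grown in DMEM with fetal bovine serum and an antibiotic/antimycotic, with no other treatment or genetic change named in the labels. Shear stress applied to the mixed population gave the groups, which the labels call Weak (3 libraries, dated 6, 12 and 15 March) and Strong (2 libraries, dated 6 and 15 March) in adhesion strength. All groups thus share 1 cell line and the same culture conditions, and no unsorted or unsheared population was analysed here. The labels do not say whether libraries came from separate cultures. The p-values thus measure a spread between these libraries, partly pooled over genes, which may be technical. In bulk RNA, fewer cells of a type and less RNA per cell cannot be told apart, and a response to shear cannot be told apart from a difference the cells had before it.

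Fibronectin, encoded by FN1, is secreted as a dimer that cells assemble into fibrils through integrins, and it is a main substrate for the adhesion of cultured cells. Thrombospondin-1 (THBS1), tenascin-C (TNC), SPARC and the TGF-beta-induced protein TGFBI are matricellular proteins, which are deposited in the matrix and alter how cells hold to it rather than bearing load themselves. Lysyl oxidase (LOX) and its relative LOXL2 oxidise lysines so that collagen and elastin become crosslinked, fibrillin-1 (FBN1) forms microfibrils, and perlecan (HSPG2) is a large heparan sulfate proteoglycan of basement membranes.

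Each library held 19630386 to 21707459 reads assigned to genes, and 13297 genes, the 9 among them, had enough reads to be tested. The tests were run on all of these genes with edgeR's quasi-likelihood test, and a gene was called at a Benjamini-Hochberg adjusted p under 0.05. All 6 markers of mesenchymal MDA-MB-231 cells were present, with sums of 7960 to 8145 counts per 1000000 reads (CPM) in strongly and 7375 to 7623 in weakly adherent libraries, while ESR1 and PGR, the hormone receptors of luminal breast cells, had no reads. Of 9 luminal markers 6 were at 1 CPM or more, and their sums were 1477 to 1609 CPM in strongly and 1328 to 1433 in weakly adherent libraries. Of 9 markers of fibroblasts, the classic source of matrix proteins, 3 reached 1 CPM and DCN had no reads; their sums overlapped between the groups (18.5 to 25.0 CPM in strongly and 20.2 to 24.0 in weakly adherent libraries). Sums for 5 endothelial markers (3.43 to 4.13 against 3.83 to 4.77 CPM) and 5 leukocyte markers (125 to 146 against 116 to 131 CPM, with CD3E and MS4A1 at no reads) overlapped too. No marker of these lists was called, and the part of the MDA-MB-231 and luminal sums, which did not overlap, in the results below was not tested.

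THBS1 was the only one of the 9 genes that passed the test, and it was lower in weakly adherent cells. Of the 9 genes 0 were called higher and 1 lower, against 1.77% higher and 0.918% lower (2.68% in all) of the 13297 genes. At an unadjusted p under 0.05, 1 gene was higher (TNC) and 2 were lower (THBS1 and TGFBI), against 7.86% and 6.35% of all genes. DESeq2's Wald test called TNC higher and THBS1 lower (2.31% and 1.06% of all genes), and limma-voom called THBS1 lower and none higher (0.842% and 1.67%). With the date shared by libraries of both groups as a block, THBS1, TGFBI and LOX were called lower and TNC higher. In that fit 5.28% of all genes were lower and 6.20% higher (11.5% in all). It leaves 1 residual degree of freedom and gives the weakly adherent library of 12 March no weight. Its SE was 0.065 for FN1, whose pairs differed in sign, and 0.069 for LOX, whose pairs were alike. The SE and p-values with the block thus rest mostly on spread pooled over genes, not on each gene's own pairs. The median log2 fold change of the 9 genes was -0.06, with 4 positive and 5 negative, against -0.00054 over all genes tested. In 4 of the 9 genes the 2 groups had separate ranges, THBS1 and TGFBI being lower and TNC and FBN1 higher in all weakly adherent libraries; 30.0% of all genes tested did not overlap.

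Sequences upstream of the 4 genes called with the block, and of FN1, whose difference changed sign between dates, are shown to give their immediate promoter context. They are the 250 bases before the annotated gene start, from RefSeq on GRCh38.p14, and 8 of the 9 genes were searched. The windows lie at chr15:39580829-39581078 (plus strand), chr5:136028738-136028987 (plus strand), chr5:122078260-122078509 (minus strand), chr9:115118158-115118407 (minus strand) and chr2:215436069-215436318 (minus strand), each 5′ to 3′ on the gene's strand. For LOX the table lists 3 starts, and the one farthest upstream is shown. Capitals mark matches, on either strand, to 6 motifs: the TATA-like TATAAA and TATAAG, the TEAD core GGAATG, the AP-1 site TGANTCA, the cAMP response element TGACGTCA and the CCAAT box; no 2 matches overlap in the windows shown.
THBS1: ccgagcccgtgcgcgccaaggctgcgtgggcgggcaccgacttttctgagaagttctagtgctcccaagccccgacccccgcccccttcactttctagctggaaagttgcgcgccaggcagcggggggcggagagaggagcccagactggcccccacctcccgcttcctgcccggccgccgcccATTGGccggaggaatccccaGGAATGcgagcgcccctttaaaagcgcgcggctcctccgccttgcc
TGFBI: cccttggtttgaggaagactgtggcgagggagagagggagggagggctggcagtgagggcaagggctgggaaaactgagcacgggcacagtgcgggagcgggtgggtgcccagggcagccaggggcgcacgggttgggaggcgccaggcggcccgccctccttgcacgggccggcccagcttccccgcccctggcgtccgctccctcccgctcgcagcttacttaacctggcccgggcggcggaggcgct
LOX: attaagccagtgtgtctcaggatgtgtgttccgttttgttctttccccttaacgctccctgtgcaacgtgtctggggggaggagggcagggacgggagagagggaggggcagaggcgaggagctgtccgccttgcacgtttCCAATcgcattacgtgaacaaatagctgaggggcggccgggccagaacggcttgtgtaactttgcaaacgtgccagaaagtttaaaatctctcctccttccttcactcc
TNC: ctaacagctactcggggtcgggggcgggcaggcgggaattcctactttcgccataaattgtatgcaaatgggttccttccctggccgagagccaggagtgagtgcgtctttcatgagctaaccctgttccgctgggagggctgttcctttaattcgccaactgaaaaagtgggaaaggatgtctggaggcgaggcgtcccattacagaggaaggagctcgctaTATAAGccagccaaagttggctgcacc
FN1: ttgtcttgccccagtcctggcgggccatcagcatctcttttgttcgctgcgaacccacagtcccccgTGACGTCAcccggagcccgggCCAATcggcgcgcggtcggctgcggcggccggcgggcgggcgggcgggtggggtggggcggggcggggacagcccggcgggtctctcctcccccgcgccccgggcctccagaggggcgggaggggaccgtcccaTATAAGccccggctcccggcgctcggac
The THBS1 window holds GGAATG at base -46 from the start, which 11.9% of the 35116 listed windows of this length hold, and a reverse CCAAT box at -66 (32.0% of windows). TNC and FN1 hold TATAAG at -27 and -28 (5.03% of windows). FN1 also holds the full TGACGTCA at -183 (1.65% of windows) and a CCAAT box at -162, and LOX holds a CCAAT box at -109. No match to the 6 motifs is in the TGFBI window. Among genes not shown, GGAATG occurs at -58 for FBN1 and, reversed, at -17 for SPARC. No motif of the 6 is in all 3 windows of THBS1, TGFBI and LOX, and a match is a description only.

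Levels between the 9 genes spanned more than 3 orders of magnitude. Per kilobase of the longest annotated transcript, the mean over the 5 libraries was 332 ± 55.2 CPM per kilobase (SD, n = 5) for THBS1, followed by LOXL2 at 86.1 ± 4.44 and FN1 at 33.7 ± 3.74. TGFBI at 19.96 ± 2.59 and LOX at 18.6 ± 3.83 came next, and their ranges over the libraries overlapped. TNC stood at 10.5 ± 1.88, HSPG2 at 5.75 ± 0.53, FBN1 at 2.14 ± 0.13 and SPARC at 0.112 ± 0.042. The ranges of all other neighbours in this order did not overlap. Per kilobase of coding sequence, which leaves out untranslated regions, LOX (75.8) and TGFBI (45.4) stood above FN1 (41.6), so the order of these 3 genes depends on the length used. By mean CPM, without regard to length, THBS1 ranked 24th of the 25382 genes, and it supplied 67.5% to 75.9% of the reads of the 9 genes.

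**Figure D1:**
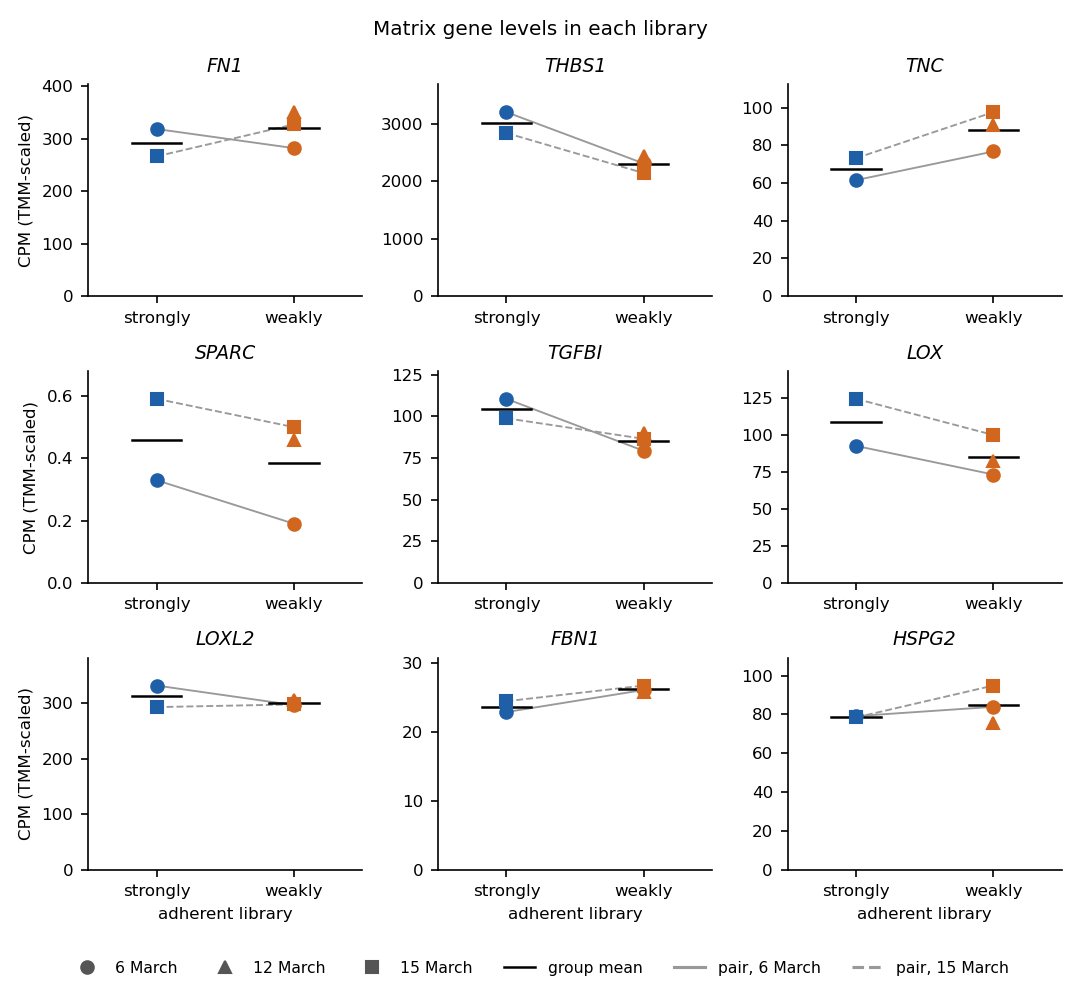
TMM-scaled CPM of each of the 9 genes (vertical axes from 0) in the 2 strongly and 3 weakly adherent libraries; symbols give the date, black bars the group means and grey lines join libraries of the same date. THBS1, TGFBI, TNC and FBN1 separate without overlap, LOX is lower in the weakly adherent library of each shared date, and the FN1 lines cross.

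Thrombospondin-1, an adhesion-modulating trimer that binds CD47 and CD36 and can activate latent TGF-beta, had by far the most reads of the set. THBS1 stood at 3199 and 2836 CPM in the strongly adherent libraries of 6 and 15 March, and at 2307, 2439 and 2140 CPM in weakly adherent libraries of 6, 12 and 15 March. The lowest strongly adherent library was thus above the highest weakly adherent one. The group means were 3017 ± 257 CPM (SD, n = 2) and 2295 ± 150 CPM (SD, n = 3), a 1.31-fold decrease in weakly adherent cells (log2 fold change -0.39, SE 0.09, edgeR's adjusted p = 0.035). In percent of all gene counts, THBS1 made up 0.316% and 0.288% of strongly adherent and 0.227%, 0.243% and 0.217% of weakly adherent libraries. The call ended whichever library was left out, with edgeR's adjusted p from 0.0501 (without the weakly adherent library of 6 March) to 0.40 (without the strongly adherent library of 6 March), while the log2 fold change ran from -0.47 to -0.31. With the date block it was -0.44 (SE 0.07, edgeR's adjusted p = 1.5e-08).

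TGFBI, a fasciclin-domain protein that carries an RGD integrin-binding sequence and is named for its induction by TGF-beta, was lower in every weakly adherent library. Its CPM were 110.5 and 98.9 in strongly adherent cells of 6 and 15 March, and 79.3, 89.9 and 86.5 in weakly adherent cells of 6, 12 and 15 March. The groups did not overlap, but the log2 fold change of -0.30 (SE 0.08) did not pass the test (edgeR's adjusted p = 0.089). It passed with the date block (-0.34, SE 0.07, edgeR's adjusted p = 4.0e-05).

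LOX, the copper-dependent enzyme that starts collagen and elastin crosslinking, varied more by date than by adhesion. LOX was at 92.8 and 124.7 CPM in strongly adherent libraries of 6 and 15 March, and at 73.4, 82.8 and 100.2 CPM in weakly adherent libraries of 6, 12 and 15 March. Because both groups were higher on 15 March, by 0.43 (strongly) and 0.45 (weakly adherent) on the log2 scale, the weakly adherent library of 15 March lay above the strongly adherent one of 6 March and the groups overlapped. Over all genes tested, the median absolute difference between those dates was 0.13 in strongly and 0.14 in weakly adherent libraries. Without the block LOX had a log2 fold change of -0.35 (SE 0.16, edgeR's adjusted p = 0.41), and with it -0.33 (SE 0.07, edgeR's adjusted p = 6.5e-05). LOX exons overlap SRFBP1 on the opposite strand in GENCODE release 29, and whether reads were assigned by strand is not given in the sources used here; SRFBP1 had 470 to 526 reads against 1546 to 2745 for LOX, and a log2 fold change of -0.01.

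LOXL2, the scavenger receptor domain relative of LOX that crosslinks basement membrane collagen, had the smallest SD relative to its mean of the 9 genes, over the 5 libraries. It stood at 332 and 293 CPM in strongly adherent libraries of 6 and 15 March and at 297, 307 and 298 CPM in weakly adherent ones of 6, 12 and 15 March. The weakly adherent values lay between the strongly adherent ones, and the log2 fold change was -0.06 (SE 0.08, edgeR's adjusted p = 0.85). 

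Tenascin-C, a hexameric glycoprotein known for weakening the hold of cells on fibronectin, was higher in every weakly adherent library. TNC was at 61.6 and 73.2 CPM in strongly adherent cells of 6 and 15 March, and at 76.8, 90.7 and 97.7 CPM in weakly adherent cells of 6, 12 and 15 March. The groups did not overlap, and the means were 67.4 ± 8.24 CPM (SD, n = 2) and 88.4 ± 10.6 CPM (SD, n = 3). The log2 fold change of 0.39 (SE 0.11) did not pass edgeR's test (adjusted p = 0.12), and it passed DESeq2's Wald test (adjusted p = 0.042). With the date block it was 0.37 (SE 0.07, edgeR's adjusted p = 7.6e-06), and with the coding-length trend removed as well 0.13 (edgeR's adjusted p = 0.33). Of the 5 fits that leave out 1 library, the one without weakly adherent cells of 6 March called TNC (0.48, edgeR's adjusted p = 0.014). The other 4 did not, with log2 fold changes of 0.27 to 0.53 and adjusted p of 0.063 to 0.53. Like LOX, TNC was higher on 15 than on 6 March in both groups, by 0.25 and 0.35 on the log2 scale in strongly and weakly adherent cells.

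Fibronectin itself was not called with or without the date block, and its direction differed between the dates. FN1 was at 319 and 266 CPM in strongly adherent libraries of 6 and 15 March, and at 282, 351 and 327 CPM in weakly adherent libraries of 6, 12 and 15 March. The groups overlapped, and the log2 fold change was 0.13 (SE 0.11, edgeR's adjusted p = 0.69). On 6 March the weakly adherent library was lower by 0.18 on the log2 scale, and on 15 March it was higher by 0.30. With the block the log2 fold change was 0.06 (SE 0.06, edgeR's adjusted p = 0.67).

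Fibrillin-1 and perlecan, the largest structural proteins of the set, were slightly higher in most weakly adherent libraries without passing the test. FBN1 was at 22.9 and 24.4 CPM in strongly and at 26.1, 25.7 and 26.7 CPM in weakly adherent libraries, in order of date. Its groups did not overlap, and its log2 fold change was 0.15 (SE 0.09, edgeR's adjusted p = 0.56). HSPG2 was at 79.1 and 78.4 CPM in strongly adherent libraries of 6 and 15 March, and at 83.9, 75.8 and 94.8 CPM in weakly adherent ones of 6, 12 and 15 March. The weakly adherent library of 12 March was the lowest and that of 15 March the highest of all 5, so the groups overlapped (log2 fold change 0.11, SE 0.09, edgeR's adjusted p = 0.71; 0.18, SE 0.07, adjusted p = 0.074 with the block). SPARC, a collagen-binding matricellular protein, was near the limit of detection with 7 and 13 reads in strongly and 4, 9 and 11 reads in weakly adherent libraries. At that depth a difference was not detectable (log2 fold change -0.27, SE 0.50, edgeR's adjusted p = 0.91).

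**Figure D2:**
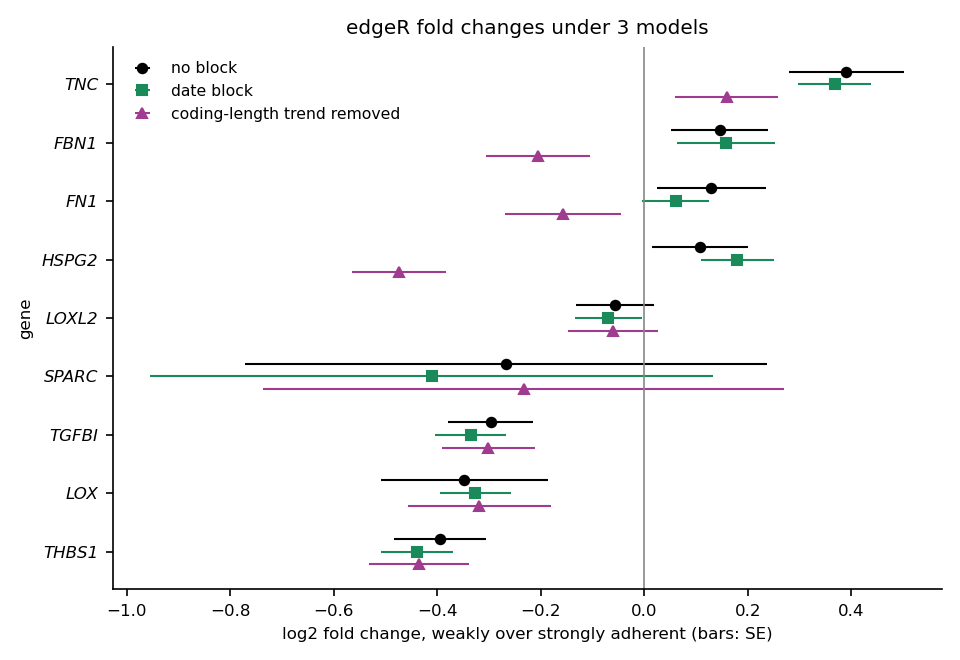
Log2 fold changes (weakly over strongly adherent, horizontal axis) of the 9 genes with bars of 1 SE, from edgeR without a block (black circles), with the date block (green squares) and after removal of the coding-length trend (purple triangles). THBS1, LOX and TGFBI lie between -0.44 and -0.30 in all 3 fits, while HSPG2, FN1 and FBN1 lie above 0 in the first 2 and below 0 in the third.

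Within the shared dates, 6 of the 8 genes other than SPARC kept their sign. THBS1 was lower in weakly adherent cells on both dates, with changes of -27.9% on 6 March and -24.5% on 15 March (log2 ratios -0.47 and -0.41). LOX differed by nearly the same amount in both pairs (-0.34 and -0.32), whereas TGFBI differed more on 6 March (-0.48) than on 15 March (-0.19). TNC (0.32 and 0.42), FBN1 (0.19 and 0.13) and HSPG2 (0.08 and 0.27) were higher in weakly adherent cells of both dates. FN1 (-0.18 and 0.30) and LOXL2 (-0.16 and 0.02) changed sign. Over all 13297 genes, 62.8% had the same sign in both pairs and the median absolute log2 ratio was 0.14 on 6 March and 0.13 on 15 March. Each pair is 1 library of each group, so a difference between the dates was not tested. SPARC had too few reads to read a ratio from.

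**Figure D3:**
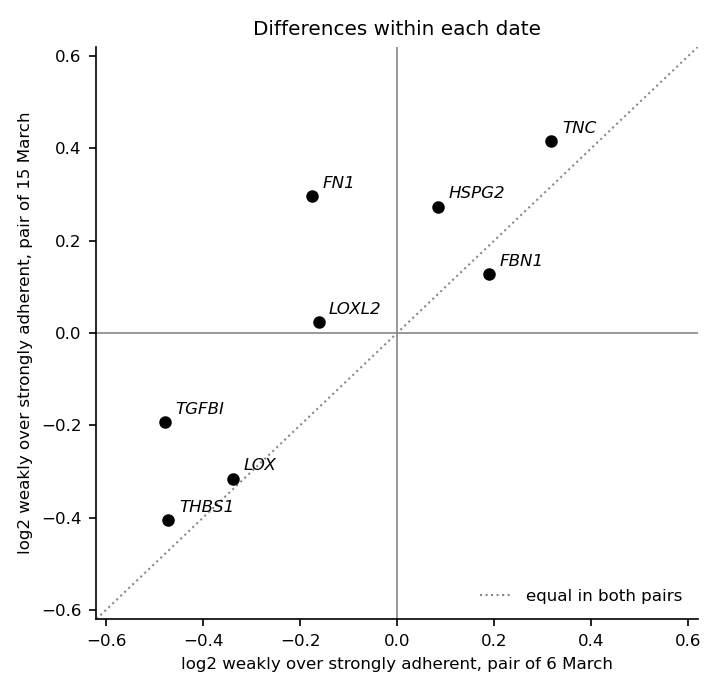
Log2 ratio of weakly over strongly adherent CPM in the pair of 6 March (horizontal) against the pair of 15 March (vertical) for 8 genes, SPARC being left out for its low reads; the dotted line marks equal ratios. THBS1, LOX and TGFBI lie below 0 on both axes, TNC, FBN1 and HSPG2 above 0 on both, and FN1 and LOXL2 are below 0 on 6 March only.

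The sign of the fold change sorted the 9 genes by coding length. The 4 genes with a coding sequence over 6 kilobases, TNC (6603 bases), FN1 (7431), FBN1 (8613) and HSPG2 (13173), had positive log2 fold changes. The 5 shorter ones, from SPARC (909) to THBS1 (3510), had negative ones. By transcript length the sorting did not hold, since THBS1 (7775 bases) was longer than TNC (7641 bases). Not all of these signs were stable. With 1 library left out, SPARC ran from -0.62 to 0.22 and LOXL2 from -0.14 to 0.034, and FN1 changed sign between the dates. Long genes in general were higher in the weakly adherent libraries. The median log2 fold change of tested genes of like coding length (the shorter of each pair at least 0.8 times the longer) was 0.69 for HSPG2 (57 genes), 0.34 for FBN1 (163 genes), 0.26 for FN1 (241 genes) and 0.19 for TNC (337 genes). HSPG2, FBN1 and FN1 thus lay below the median of genes of like coding length (differences of -0.58, -0.20 and -0.13), and TNC lay 0.20 above it. Among genes of like transcript length the differences were smaller for these 3 genes, -0.092 for HSPG2, -0.017 for FBN1 and 0.041 for FN1, and 0.34 for TNC. For the shorter genes the medians by coding length ran from -0.03 to 0.03.

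Once the coding-length trend was taken out of each library, HSPG2 was called lower in weakly adherent cells. Its log2 fold change was -0.47 (SE 0.09, edgeR's adjusted p = 0.0056), or -0.43 (adjusted p = 2.3e-07) when the date was also blocked. THBS1 was the other call in that fit (-0.43, SE 0.10, edgeR's adjusted p = 0.019), so 2 of 9 genes were called, both lower. Of the 11762 genes with a known coding length, 2.07% were called in either direction (111 higher and 133 lower). TNC had 0.16 (adjusted p = 0.59), FN1 -0.16 (0.67) and FBN1 -0.20 (0.40). With the block as well, 5 of 9 were called lower, FN1 (-0.24, edgeR's adjusted p = 0.011) with THBS1, TGFBI, LOX and HSPG2. Over all genes of that fit, 10.2% were called in either direction (539 higher and 665 lower). Which length suits is a choice: with the transcript-length trend removed instead, a setting added after the data were seen, HSPG2 was at -0.16 (edgeR's adjusted p = 0.50), FN1 at 0.01 and TNC at 0.33 (adjusted p = 0.079), and THBS1 was called at -0.47 (adjusted p = 0.010). The direction of HSPG2, FN1 and FBN1 therefore depends on the treatment of length, and those of THBS1, TGFBI, LOX and TNC were the same in these 3 fits with and without the block.

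**Figure D4:**
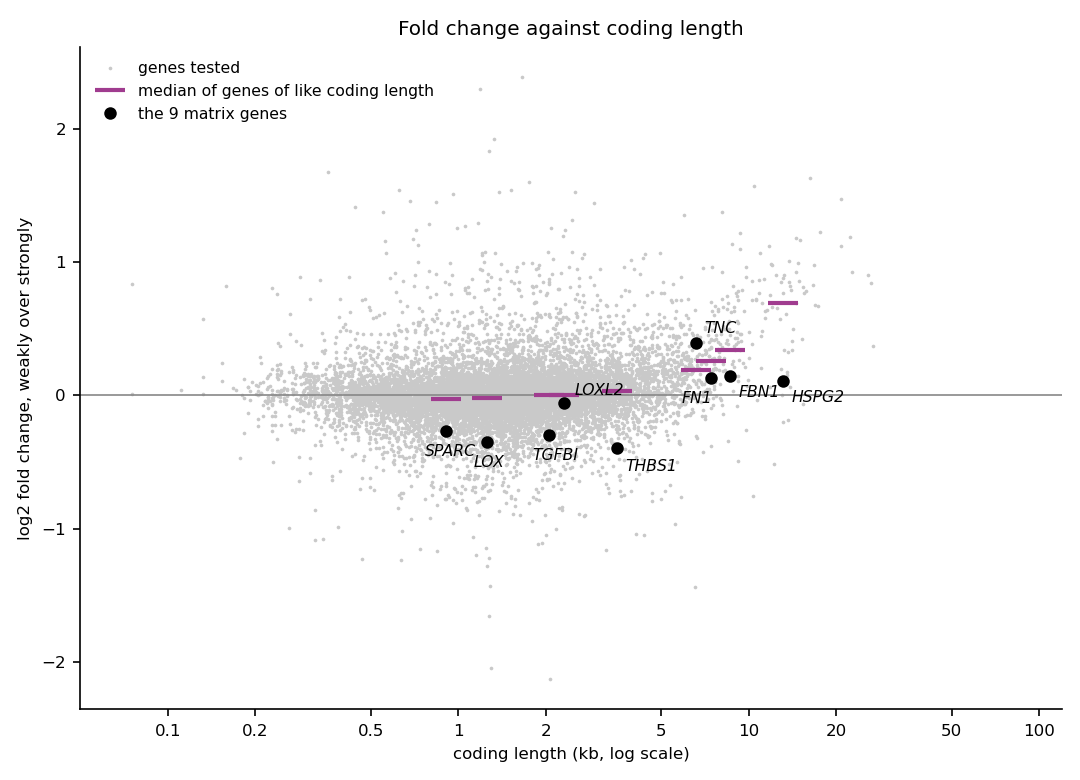
Log2 fold change (weakly over strongly adherent, vertical) against coding length in kilobases (horizontal, log scale) for tested genes (grey dots), the 9 genes (black) and the median of genes of like coding length at each of them (purple bars). HSPG2 lies at 0.11 where the median is 0.69, TNC lies above its bar, and THBS1, LOX and TGFBI lie below theirs.

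Among other matricellular genes, the calls were all decreases and fell on the CCN family, small secreted proteins that bind integrins and heparan sulfate. Of 13 tested members, 0 rose and 2 fell, with a median log2 fold change of -0.28, against 1.77% higher and 0.918% lower of all genes. At an unadjusted p under 0.05, 2 were higher and 5 lower (7.86% and 6.35% of all genes), and DESeq2 called 0 higher and 3 lower and limma-voom 0 and 2. The same shares of all genes apply to each further list. CYR61 averaged 1131 ± 47.4 CPM (SD, n = 2) in strongly and 685 ± 50.3 CPM (SD, n = 3) in weakly adherent libraries, a decrease with a log2 fold change of -0.72 (SE 0.08, edgeR's adjusted p = 0.00057). CTGF, the connective tissue growth factor, fell to 160 ± 9.18 CPM from 246 ± 14.1 CPM (a log2 difference of -0.62, SE 0.08, edgeR's adjusted p = 0.00082). Both calls held with each library left out in turn. With the date block 2 rose and 5 fell (6.20% and 5.28% of all genes). Named after their values were seen, the 2 that rose were SPOCK2 (2.08, edgeR's adjusted p = 0.012) and TNXB (0.74, 0.00074). The 5 that fell were MATN2 (-0.49, 6.8e-09), FSTL1 (-0.32, 3.7e-05), ECM1 (-0.25, 0.013), CYR61 and CTGF. With the coding-length trend removed as well, 1 rose and 5 fell, against 10.2% of all genes called in either direction.

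The microfibril genes, partners of fibrillin-1, and the latent TGF-beta genes gave 3 more calls, all lower. Of 15 microfibril and elastic fibre genes 1 fell and 0 rose, against 0.918% and 1.77% of all genes (median -0.07). At an unadjusted p under 0.05, 3 were higher and 1 lower (7.86% and 6.35% of all genes), and DESeq2 and limma-voom each called 0 higher and 1 lower. That gene, ADAMTSL4, which binds fibrillin-1, fell to 6.53 ± 0.57 CPM from 10.6 ± 1.01 CPM (a log2 difference of -0.69, SE 0.14, edgeR's adjusted p = 0.021), and its call ended without either strongly adherent library (0.067 and 0.19) and when weakly adherent cells of 15 March were left out (0.052). LTBP1, which tethers latent TGF-beta to fibrillin and fibronectin, was at 53.8 ± 6.22 and 70.2 ± 11.8 CPM (0.38, SE 0.14, edgeR's adjusted p = 0.24, or 8.1e-06 with the block). With the coding-length trend removed LTBP1 was at 0.24 (edgeR's adjusted p = 0.41, or 0.022 with the block as well). EFEMP1 had -0.19 (SE 0.10, edgeR's adjusted p = 0.41, or 0.00063 with the block). Of 16 TGF-beta ligands, receptors and latency genes 2 fell and 0 rose (median -0.02), 1 was higher and 2 lower at an unadjusted p under 0.05, and DESeq2 and limma-voom each called 0 higher and 2 lower. Of these the ligand TGFB2 fell from 81.9 ± 2.32 to 57.8 ± 3.80 CPM (-0.50, SE 0.08, edgeR's adjusted p = 0.0054), a call lost when strongly adherent cells of 6 March were left out (0.053). The receptor TGFBR2 was at -0.02 (SE 0.07, adjusted p = 0.94).

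Crosslinking enzymes, heparan sulfate proteoglycans and receptors gave no call without the block. Of 15 crosslinking enzymes, 13 were below 0 (median log2 fold change -0.05), against 50.2% of all genes. Of the 15, 0 were higher and 1 lower at an unadjusted p under 0.05 (7.86% and 6.35% of all genes), and DESeq2 and limma-voom called none. The transglutaminase TGM2, which joins glutamine to lysine residues of fibronectin, was at 912 ± 85.1 and 775 ± 97.7 CPM (-0.23, SE 0.10, edgeR's adjusted p = 0.33), and the lysyl hydroxylase PLOD2 at 84.1 ± 10.5 and 67.8 ± 11.0 CPM (-0.31, SE 0.14, adjusted p = 0.37). With the block both were lower (adjusted p = 6.8e-06 and 1.7e-05), as LOX was. P4HB, the most abundant of that list, was at -0.01 (SE 0.08). Of 14 heparan sulfate proteoglycan genes and nidogens none had an unadjusted p under 0.05, and DESeq2 and limma-voom called none (median -0.01). AGRN (0.02, SE 0.07), a basement membrane proteoglycan like perlecan with a coding sequence of 6135 bases, and the perlecan receptor DAG1 (-0.0041, SE 0.07) were their most abundant members. The syndecan SDC4, a member of both this and the receptor list (-0.18, SE 0.09, adjusted p = 0.38) and a coreceptor for fibronectin, was lower with the block (adjusted p = 0.0065), and NDST1 was at -0.13 (SE 0.07). Of 12 receptors 0 were called (0 higher and 1 lower at an unadjusted p under 0.05, and 0 by DESeq2 and limma-voom; median -0.01). ITGB3, the beta chain of a vitronectin and fibronectin receptor, was at 8.50 ± 0.57 and 5.95 ± 1.59 CPM (-0.51, SE 0.19, adjusted p = 0.24; 0.017 with the block). LRP1, which takes up thrombospondin-1 and has a coding sequence of 13632 bases, was at 15.2 ± 0.57 and 18.9 ± 3.83 CPM (0.32, SE 0.15, adjusted p = 0.37; 0.0083 with the block). Without the coding-length trend LRP1 turned to -0.28 (adjusted p = 0.35). The most abundant receptors, ITGA3 (-0.05, SE 0.08) and CALR (-0.01, SE 0.08), showed differences smaller than their standard errors.

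**Figure D5:**
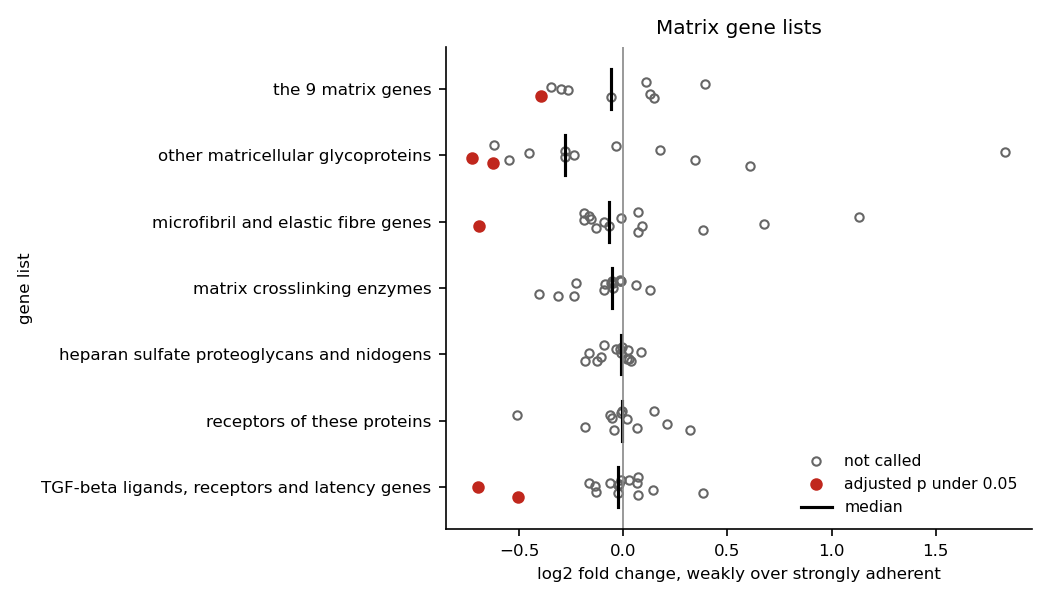
Log2 fold change (weakly over strongly adherent, horizontal) of every tested gene of the 9 genes and 6 further matrix lists (rows), with called genes in red, others as open circles, the list median as a black bar, and vertical scatter within a row for legibility only. The 6 red points, among them THBS1, CYR61, CTGF, ADAMTSL4 and TGFB2, all lie between -0.72 and -0.39.

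Genes whose levels followed THBS1 and FN1 most closely over the 5 libraries were sought among 7755 others with a mean of at least 20 CPM, by the root mean square distance of centred log2 CPM. For THBS1 they were LEPREL1, a prolyl hydroxylase of collagen (distance 0.0365, log2 fold change -0.33), and MYBL2, a cell cycle transcription factor (0.0384, log2 fold change -0.43), besides 1 gene whose symbol is spelled as a date and is not named. Their likeness to THBS1, the lower level in weakly adherent cells included, follows from how they were chosen. For FN1 they were CARD10 (0.0396), CDC42EP4 (0.0536) and H2AFJ (0.0661).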

How the data were processed

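RNA of 5 MDA-MB231 samples was sequenced from TruSeq stranded libraries as 50 bp single-end reads, per the labels' protocols. Tools named, without versions, in the submitters' processing notes are STAR, HTSeq, cutadapt, FastQC and DESeq2, with the build hg19. The authors deposited raw counts per gene symbol, and log2 values that equal log2(count / size factor + 1), as tested on the file; 5 rows of reads outside genes were left out. Of uniquely aligned reads, 7.96% to 9.84% lay in no annotated gene.

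edgeR 4.0.16 under R 4.3.3 served to test counts (TMM, filterByExpr, robust quasi-likelihood fit, no covariate), and log2 fold changes are weakly over strongly adherent. SE follow from the fold change and F. The biological coefficient of variation was 7.91%. Titles give the date, so same-date libraries were taken as pairs. Their deviations from group means correlated at 0.34 (6 March) and 0.20 (15 March). The strongly adherent group holds only the libraries of 6 and 15 March, so their deviations from its mean are equal and opposite. These correlations are thus not separate values and cannot decide whether same-date libraries are pairs. The weakly adherent library of 12 March, without a same-date partner, correlated at -0.16 and 0.16 with the strongly adherent libraries of 6 and 15 March. Alternatives were DESeq2 1.42.0 (size factors and Wald test), limma 3.58.1 (voom, and the deposited log2 values), filters, the block, each library left out, and offsets that remove each library's trend with length (natural spline, 5 degrees of freedom). Lengths are the longest per symbol in GENCODE release 29, on another build, and served for no coordinates; 88.5% of genes tested had a coding length. Replicates differed beyond sampling noise (chi-square over its degrees of freedom 7.58 to 12.7). The tests were tried on simulated data, which held no date effect and so cannot check the block against one.

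The genes, lists and tests were chosen with earlier results of these data known, so no list was tested as a set. Named besides the 9 genes were, per list, the 2 genes with the smallest p and the 2 most abundant, and the 3 nearest to THBS1 and FN1. For 1 gene of the TGF-beta list no values are reported here, though list counts include it. Figures were drawn with matplotlib 3.10.9.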

Additional observations from a re-analysis of the deposited data

Results flagged for a closer look

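FN1 and LOXL2 differed in opposite directions between the pairs of 6 and 15 March. The log2 ratio of weakly over strongly adherent CPM was -0.18 on 6 March and 0.30 on 15 March for FN1, and -0.16 and 0.024 for LOXL2. Each date has 1 library of each group, so the difference between the dates was not tested.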

How the results depend on the processing

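THBS1 stayed negative in every alternative run and was called in all but the 5 that leave out 1 library (log2 fold change -0.47 to -0.31). TGFBI was called with no filter on low counts (-0.30), with the date as a replicate block (-0.34), and with the block and the coding-length or transcript-length trend removed (-0.34 and -0.32). LOX was called with the replicate block alone (-0.33) and with either trend removed as well (-0.30 and -0.32). TNC was called by DESeq2 (0.39), with no filter (0.39), with the block (0.37), with the block and the transcript-length trend removed (0.31) and without weakly adherent cells of 6 March (0.48). It was not called in the other fits, among them the block with the coding-length trend removed (0.13), and ran from 0.27 to 0.53 with 1 library left out. HSPG2 turned to -0.47 and -0.43 with the coding-length trend removed without and with the block, and to -0.16 and -0.093 with the transcript-length trend removed. FBN1 turned to -0.20, -0.21, -0.044 and -0.035 in the same 4 fits, and FN1 to -0.16 and -0.24 in the first 2 and -0.048 in the last. With 1 library left out, LOXL2 ran from -0.14 to 0.034 and SPARC from -0.62 to 0.22. Over all genes, 235 were higher and 122 lower, against 825 and 702 with the block, 539 and 665 with the block and the coding-length trend removed, 82 to 238 and 34 to 103 with 1 library left out, 111 higher with the coding-length trend removed, and 203 lower with no filter. The lower count was 34 and 50 without strongly adherent cells of 6 and 15 March and 56 and 67 without weakly adherent cells of 12 and 15 March, and the higher count 82 and 138 without strongly adherent cells of 6 and weakly adherent cells of 12 March. In the 6 other lists 0 genes were called higher and 5 lower, against 4 and 13 with the block, 2 and 14 with the block and the coding-length trend removed, and 0 to 1 and 3 to 5 with 1 library left out. The block leaves 1 residual degree of freedom, and fits with a length trend test fewer genes; the cause of the other changes was not tested. Per kilobase levels are higher with coding length, as its shorter denominator makes them, and the share of counts of the 9 genes rises when the 10 most abundant genes leave the total. Within-date differences kept their sign with raw totals and with the deposited log2 values. SPARC, at 4 to 13 reads, is limited by depth.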

Other observations

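The 9 genes together took 0.417% and 0.385% of gene counts in strongly adherent cells of 6 and 15 March, and 0.318%, 0.345% and 0.322% in weakly adherent cells of 6, 12 and 15 March. Without THBS1 the other 8 took 0.101% and 0.0975% in strongly and 0.0904%, 0.102% and 0.105% in weakly adherent libraries, so the groups separated in the summed share with THBS1 and overlapped without it. THBS1 supplied 75.9% and 74.7% of the reads of the 9 genes in strongly and 71.5%, 70.5% and 67.5% in weakly adherent libraries.

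THBS1 overlaps FSIP1 on the opposite strand, which had 8 to 27 reads against at least 47094 for THBS1, and HSPG2 overlaps LDLRAD2, which had 0 to 5 reads. LOXL2 overlaps ENTPD4 on the same strand, which had 1003 to 1258 reads and a log2 fold change of 0.02.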
